A study of Mus musculus with 5 samples.

Results

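The regions described here are ATAC peaks of adult mouse hindlimb muscle that were also called at postnatal day 5 and had no called counterpart in any library made before birth. A member is a peak of the adult library that shared at least 1 bp with a peak of the P5 library and none with a peak of wild-type E14.5, wild-type E18.5 or Cacna1s knockout E18.5 muscle. Members were chosen by these peak calls, so their presence or absence in a library is the rule and not a result. The rule took 3497 of 81124 adult peaks. They matched 3482 P5 peaks, since a few P5 peaks lay under more than 1 member.

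Nuclei came from hindlimb skeletal muscle of C57bl6n mice, wild type (WT) at embryonic days E14.5 and E18.5, at P5 and as adults, and from Cacna1s-/- mice (KO) at E18.5. Cacna1s encodes the pore subunit of the voltage-gated calcium channel through which a muscle fiber senses excitation, and the labels name no other allele or treatment. Each nucleus gave both RNA and ATAC counts, and each group was 1 library of pooled hindlimbs, with 26 in KO and, by rising age of WT, 56, 14, 8 and 4. With 1 library a group, no difference between groups has a replicate check, no test was made, and every interval covers counting error only.

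Nuclei in which Ttn, the giant spring protein of the sarcomere, held at least 1% of the RNA molecules (UMIs) stood for muscle fiber nuclei and are called Ttn nuclei. They numbered 1867, 1579, 1733, 4429 and 987 of 4812, 4261, 3747, 5106 and 3228 nuclei kept, WT by age and then KO, and held 10156121 to 19758491 UMIs a library. Over all libraries, 291 of 22009 distinct barcodes occurred in more than 1. The 8 myonuclear markers summed to 19753 to 49627 CPM, the usual scaling of UMIs by the total of all gene UMIs, in Ttn nuclei and to 1393 to 2322 CPM in the other nuclei. The levels of markers of other cells in Ttn nuclei also differed between stages. There, 4 progenitor markers summed to 372.9, 119.4, 54.4, 12.5 and 255.3 CPM, WT by age and then KO. Only at E14.5 was this sum above that of the other nuclei (283.8 CPM). In the same order, 4 mesenchymal markers summed to 138.7, 905.8, 931.9, 19.6 and 343.4 CPM, and 4 macrophage markers to 7.29, 56.0, 310.4, 37.5 and 50.5 CPM. Of the macrophage sum at P5, Mrc1 made up 294 CPM and was higher than in the other nuclei (210 CPM), whereas Csf1r, Ptprc and Adgre1 were at 4.33, 5.72 and 6.38 CPM, against 26.7, 31.2 and 37.4 CPM in the other nuclei. The share of Ttn nuclei was 38.8, 37.1, 46.3, 86.7 and 30.6%. Per the paper, nuclei with and without the myonuclear stain PCM1 were sorted apart and mixed in equal volumes before loading. These shares are therefore those of the libraries and not of the tissue. Because the peaks were called over whole libraries, fewer nuclei of a type and less open chromatin or RNA per nucleus cannot be told apart. A peak call also depends on depth. Kept nuclei held 22230795, 36411805, 23438339, 45268051 and 13899642 ATAC counts, WT by age and then KO. Of these, Ttn nuclei held 11059160, 14840430, 11763311, 38615909 and 5746384. The part of depth in the absence of prenatal calls was not tested. Cacna1s itself was at 207, 189, 349, 326 and 0.720 CPM with WT by age first and KO last, the order used for all levels below, and so nearly absent in KO. A count of 0 allows up to 3 counts.

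As background, a muscle fiber is a syncytium that begins before birth with embryonic and fetal forms of its contractile proteins and replaces them with adult fast or slow forms in the weeks after birth. Over the same period it builds the triad, where the surface membrane meets the calcium store, and gains the glycolytic or oxidative enzymes of its fiber type. Open chromatin away from gene starts often marks enhancers, short stretches where transcription factors bind to regulate a gene that may lie at a distance.

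Few members lay at gene starts, and some of those that did were at genes of the adult fast fiber. Of 32851 RefSeq promoter windows (250 bases before to 50 after a start), 102 shared a base with a member and 64 were wholly inside one. The windows shown are the wholly covered ones of protein-coding genes that stood at 100 CPM or more in adult Ttn nuclei and were at least 2-fold above E18.5, chosen after these values were seen, and they show which promoters lay under a peak of P5 and adult muscle. They are from RefSeq on GRCm38.p6, 5′ to 3′ on the strand of the gene, with the start directly after the first 250 bases. Capitals mark every E-box, the 6-letter motif CANNTG that myogenic bHLH factors such as Myod1 and Myogenin can bind.
Myh4, chr11:67237562-67237861, plus strand: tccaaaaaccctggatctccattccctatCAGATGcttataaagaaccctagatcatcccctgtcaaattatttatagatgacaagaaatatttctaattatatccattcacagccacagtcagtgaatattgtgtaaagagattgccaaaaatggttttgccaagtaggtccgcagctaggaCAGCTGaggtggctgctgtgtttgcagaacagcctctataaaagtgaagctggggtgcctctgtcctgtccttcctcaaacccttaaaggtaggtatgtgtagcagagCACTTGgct
Pvalb, chr15:78206351-78206650, minus strand: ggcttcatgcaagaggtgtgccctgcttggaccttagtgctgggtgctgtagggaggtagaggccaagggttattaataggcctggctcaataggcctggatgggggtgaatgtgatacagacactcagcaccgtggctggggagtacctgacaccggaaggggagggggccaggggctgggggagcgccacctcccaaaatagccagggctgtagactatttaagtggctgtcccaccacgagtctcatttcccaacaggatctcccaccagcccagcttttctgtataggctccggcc
Asb5, chr8:54577201-54577500, plus strand: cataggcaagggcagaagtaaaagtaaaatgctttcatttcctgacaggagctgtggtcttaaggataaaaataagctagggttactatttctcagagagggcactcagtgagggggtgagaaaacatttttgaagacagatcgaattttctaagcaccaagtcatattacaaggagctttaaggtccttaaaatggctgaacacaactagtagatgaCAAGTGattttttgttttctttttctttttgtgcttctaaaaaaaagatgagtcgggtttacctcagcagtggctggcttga
Stat5b, chr11:100822521-100822820, minus strand: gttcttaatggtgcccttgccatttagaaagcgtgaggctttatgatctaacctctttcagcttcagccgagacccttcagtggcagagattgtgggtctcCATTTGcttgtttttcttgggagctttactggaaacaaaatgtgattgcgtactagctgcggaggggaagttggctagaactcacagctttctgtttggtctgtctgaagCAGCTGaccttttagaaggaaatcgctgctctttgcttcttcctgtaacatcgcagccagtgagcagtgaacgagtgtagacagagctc
Rpl3l, chr17:24727576-24727875, plus strand: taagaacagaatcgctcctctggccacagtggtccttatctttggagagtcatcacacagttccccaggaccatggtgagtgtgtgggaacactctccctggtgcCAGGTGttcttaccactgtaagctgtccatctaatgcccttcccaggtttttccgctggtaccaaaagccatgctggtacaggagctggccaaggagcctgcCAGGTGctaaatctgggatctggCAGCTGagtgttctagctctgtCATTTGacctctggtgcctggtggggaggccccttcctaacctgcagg
Rasgrp3, chr17:75435655-75435954, plus strand: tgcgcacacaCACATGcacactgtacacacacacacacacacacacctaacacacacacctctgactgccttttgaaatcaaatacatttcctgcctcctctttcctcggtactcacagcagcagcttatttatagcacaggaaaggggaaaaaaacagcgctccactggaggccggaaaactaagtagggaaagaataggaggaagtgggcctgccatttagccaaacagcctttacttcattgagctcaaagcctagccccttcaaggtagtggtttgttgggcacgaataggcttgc
Ucp3, chr7:100472741-100473040, plus strand: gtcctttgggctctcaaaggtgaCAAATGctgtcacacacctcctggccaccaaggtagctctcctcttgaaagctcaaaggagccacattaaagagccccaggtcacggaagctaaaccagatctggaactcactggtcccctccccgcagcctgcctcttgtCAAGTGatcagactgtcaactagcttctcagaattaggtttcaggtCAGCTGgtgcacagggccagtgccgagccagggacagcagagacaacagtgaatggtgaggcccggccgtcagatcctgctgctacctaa
The Myh4 window, upstream of the fastest adult myosin heavy chain, held 3 E-boxes and 3 copies of the TATA box TATAAA, 1 of which began 31 bases before the start. The E-box variant CAGCTG stood 67 bases before the start of Myh4, 39 before Stat5b, 20 before Rpl3l and 40 before Ucp3. No E-box was found in the Pvalb window, and the motif AGGTCA, which nuclear receptors can bind, occurred 2 times in the Ucp3 window, where 1 copy overlapped the CAGCTG. Asb5, an ankyrin-repeat and SOCS-box protein of muscle, was at 14.6, 59.9, 328, 447 and 70.7 CPM, Stat5b, a transcription factor of growth hormone signaling, at 63.6, 172, 324, 428 and 224 CPM, Rpl3l, the muscle form of a ribosomal protein, at 0.295, 10.7, 129, 266 and 3.60 CPM and Rasgrp3, a Ras activator, at 10.6, 17.0, 83.6, 185 and 20.0 CPM. All 4 were lowest at E14.5 and highest in adult.

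Over the 85 promoter windows with at least 150 of their 300 bases under a member, on either strand, 64 held CANNTG (75.3%, against 72.3% of all windows), and 19 held CAGCTG, a form of it, (22.4% against 16.3%). AGGTCA was in 23 (27.1% against 16.3%), the MAF-type motif TGCTGA in 24 (28.2% against 19.5%), the glucocorticoid-type AGAACA in 18 (21.2% against 19.0%) and the NFI-type TTGGC in 45 (52.9% against 46.7%). The KLF-type motif CCACCC was in 30 (35.3% against 31.5%), the TEAD-type CATTCC in 12 (14.1% against 14.7%), TATAAA in 7 (8.24% against 13.6%) and the MEF2 motif in 1 (1.18% against 0.557%). Windows under peaks called in all 5 libraries held AGGTCA in 10.7% and TGCTGA in 14.0%, but they differ in base composition. Their median number of CpG was 23, against 5 under members and 7 in all windows, and their median GC content 62.7%, against 53.0 and 52.7%. A match is only a stretch of letters and does not show that a factor was bound.

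Most members were far from gene starts. Their median distance to the nearest start-site interval, the stretch from the first to the last annotated start of a gene in the files, was 16328 bases, against 10738 over all adult peaks and 1872 over the 31679 adult peaks called in all 5 libraries. Within 1 kb of an interval lay 542 members (15.5%, exact binomial 95% interval 14.3 to 16.7), against 29.1% of all adult peaks and 48.1% of those called in all 5. A further 52.6% were 10 to 100 kb away and 301 (8.61%) were over 100 kb away. Of the 443 members that shared a base with an interval, 379 were in intervals over 2000 bases wide. By the GENCODE annotation, 508 members (14.53%) were within 1 kb of a transcript start, and of the remainder 165 were centred in exons (4.72% of members), 1723 in introns (49.3%) and 1101 between genes (31.5%). Introns held 39.2% of all adult peaks and 24.0% of those called in all 5.

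**Figure D1:**
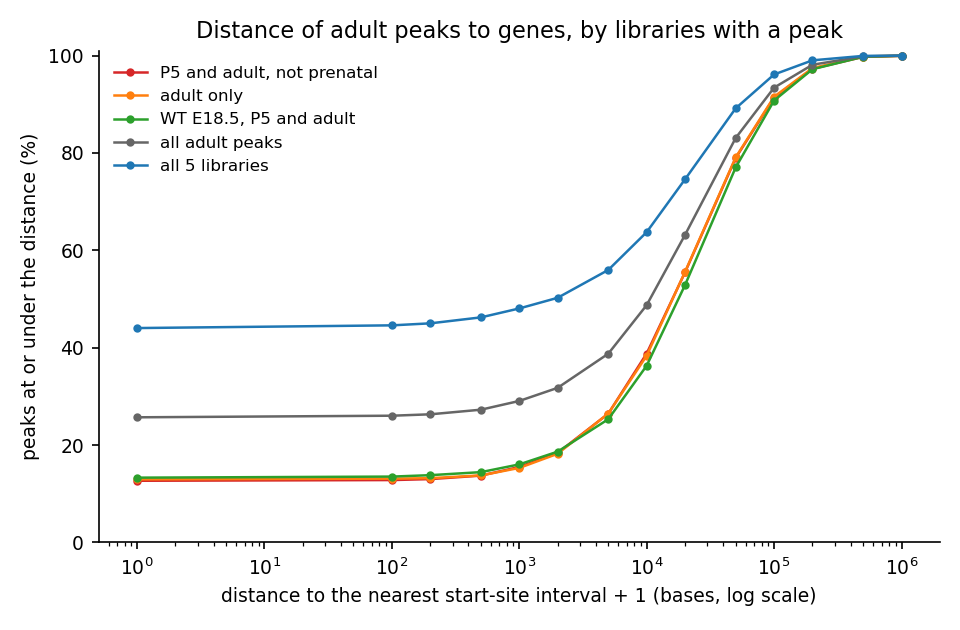
Share of adult peaks (y axis, %) at or under a distance to the nearest start-site interval (x axis, bases, log scale), for peaks grouped by the libraries in which they were called. The curve of members (P5 and adult, not prenatal) lies on that of peaks called in adult only, with 15.5 and 15.3% within 1 kb, and far under that of peaks called in all 5 libraries at 48.1%.

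In distance, members were close to the other adult peaks without a peak at E14.5. The 20504 peaks called in adult only had a median distance of 16189 bases with 15.3% within 1 kb, and the 5471 called in WT E18.5, P5 and adult but in neither E14.5 nor KO had 18090 bases and 16.0%. The median width was 885 bases for members and for all adult peaks. At the edges of the rule, the overlap with the P5 peak had a median of 822 bases and a minimum of 1, and 25 members shared under 100 bases. The nearest prenatal peak was 1 base away at the closest, 3973 at the median, and within 500 bases for 374 members. Just outside the rule, 132 of the 46946 adult peaks with both a P5 and a prenatal peak shared under 100 bases with the latter.

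Members were more often fiber peaks than adult peaks at large. In adult muscle, 1747 of 3493 measured members (at least 20 counts in Ttn nuclei or in the others) held at least 2-fold more of the ATAC counts in Ttn nuclei than in the other nuclei (50.01%), against 30.9% of all measured adult peaks, and 862 (24.7%) held at least 2-fold less, against 25.8%. At P5 the same 2 shares were 51.5% and 15.0%, against 18.6% and 22.9% of all measured P5 peaks. Both libraries also took part in the rule through their peak calls. The split of nuclei did not, but peaks were called over whole libraries, so the shares are not independent of the rule. Ttn nuclei were 86.7% of the adult and 46.3% of the P5 library, against 30.6 to 38.8% in those before birth. How much of the excess goes with this makeup was not tested. Of the peaks called in all 5 libraries, 15.6% were 2-fold higher in adult Ttn nuclei. The share for peaks of adult only was 51.8%, so the preference for Ttn nuclei was not particular to members.

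The direction was mostly kept between the stages. At least 2-fold higher in Ttn nuclei in both libraries were 1477 members (42.2%), here called fiber members, and at least 2-fold lower in both were 482 (13.8%), called non-fiber members. The other 1538 were in neither group. The same shares over all adult peaks with a P5 peak were not computed, so a kept direction is not shown to be particular to members. Ttn nuclei held 38615909 ATAC counts in adult and 11763311 at P5, and the other nuclei 6652142 and 11675028, and every ratio is scaled by these totals. Behind the ratios stood a median of 206 ATAC counts a member in adult Ttn nuclei and 21 in the others, and of 76 and 39 a partner peak at P5. From P5 to adult, the level in Ttn nuclei, in CPM of ATAC counts, was at least 2-fold higher for 233 fiber members (15.8%) and at least 2-fold lower for 134 (9.07%), whereas 5 and 201 of the non-fiber members were. Over all members the shares were 9.75% higher and 20.4% lower, and over all adult peaks with a P5 peak 2.68 and 24.6%. The groups were formed from the same counts in Ttn nuclei, so the contrast between them is not independent of the grouping. The 2 peaks of a pair were not of the same width, so these ratios compare called peaks and not fixed windows.

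**Figure D2:**
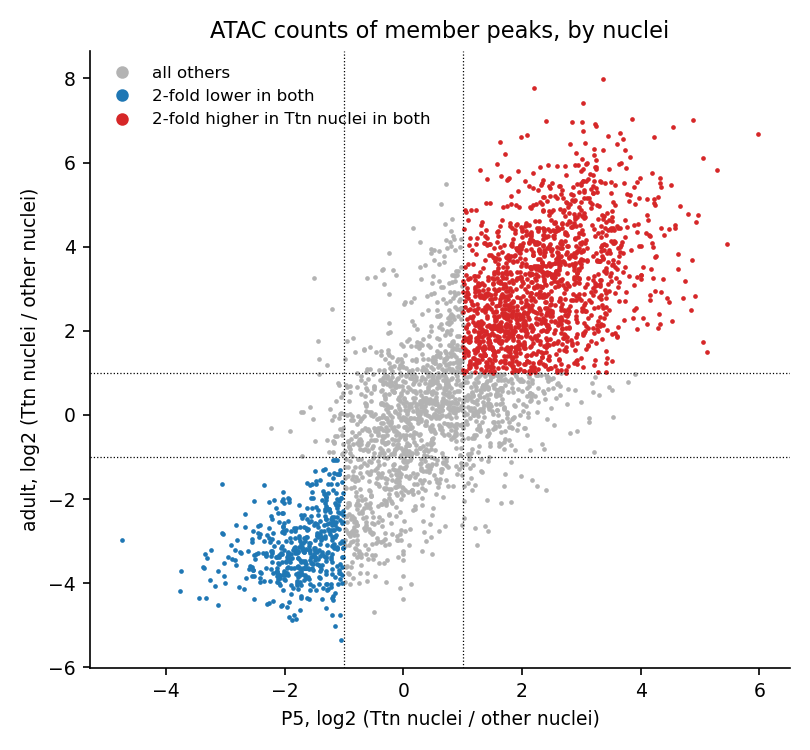
Each point is a member measured in both libraries (3480), placed by the log2 ratio of its share of ATAC counts in Ttn nuclei over that in other nuclei at P5 (x axis) and in adult (y axis), with dotted lines at 2-fold. The 1477 fiber members (red) and the 482 non-fiber members (blue) fill opposite corners, and few points lie in the other corners.

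Among other nuclei, the non-fiber members were most open in mesenchymal ones. These held 9768206 of the 11675028 ATAC counts of other nuclei at P5. Both groups of members were formed from Ttn nuclei against these pooled other nuclei. The levels below are therefore not independent of the grouping. A nucleus was put in a class where it had at least 3 UMIs of that class's markers and more than of any other class, a step chosen after the data were seen. In CPM of all ATAC counts at P5, the non-fiber members took 4021 in 1563 mesenchymal nuclei, 3547 in 27 adipocyte nuclei, 1124 in Ttn nuclei, 1207 in 105 progenitor nuclei, 1572 in 70 endothelial nuclei and 1469 in 79 macrophage nuclei. In adult they took 7295 in 205 mesenchymal nuclei, 5910 in 318 nuclei of no class, 3160 in 78 adipocyte nuclei and 657.4 in Ttn nuclei. Fiber members took 16492 CPM in Ttn nuclei at P5 and 21985 in adult, against 3255 and 2299 in mesenchymal nuclei. In progenitor nuclei, those of the muscle stem cell and its offspring, they took 3766 CPM at P5.

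The nearest genes were more often higher after birth than genes at large. The members fell to 2850 nearest genes, 2357 of them with 1 member, 387 with 2, 70 with 3, 27 with 4, 8 with 5 and 1 with 8. Called here means at least 2-fold, in a gene with at least 20 UMIs in 1 of both libraries. From E18.5 to P5 in Ttn nuclei, 285 of 1839 measured nearest genes were higher (15.5%, 95% interval 13.9 to 17.2), against 7.68% of all 14527 measured genes, and 227 were lower (12.3%), against 21.4%. From E18.5 to adult, 350 of 1841 were higher (19.0%, 95% interval 17.2 to 20.9), against 10.2% of all, and 726 lower (39.4%), against 46.8%. These comparisons, and that of the KO, share the WT E18.5 library. From P5 to adult, 208 of 1793 were higher (11.6%), against 8.31%, and 626 lower (34.9%), against 33.8%.

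These shares depend on the scale. The median gene had a log2 ratio of -0.88 from E18.5 to adult and -0.37 from E18.5 to P5, and the nearest genes -0.45 and 0.01. With TMM factors, which centre the typical gene, 648 nearest genes were higher and 507 lower in adult than at E18.5 (35.2 and 27.5%), against 22.1 and 31.6% of all genes. At P5 the TMM shares were 22.9% higher and 7.72% lower, against 11.8 and 13.1%. The nearest genes stood above all genes on both scales. Genes nearest to adult-only peaks also did so, with 15.1% higher in adult than at E18.5 and 10.5% higher at P5. So did genes nearest to peaks called at WT E18.5, P5 and adult only, with 14.3% higher in adult and 13.1% at P5.

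Before birth and in the KO, the shares were closer to those of all genes. From E14.5 to E18.5, 384 of 1807 measured nearest genes were higher (21.3%, 95% interval 19.4 to 23.2), against 17.3%, and 201 lower (11.1%), against 9.94%. In the KO, 132 of 1812 were lower than in WT at E18.5 (7.28%, 95% interval 6.13 to 8.58), against 5.53%, and 120 were higher (6.62%), against 6.2%. Near peaks called at WT E18.5, P5 and adult only, 23.3% of genes were higher from E14.5 to E18.5 and 7.66% lower in the KO. Near adult-only peaks the same shares were 18.6 and 5.46%. Neither excess was thus particular to members. The KO peaks were part of the rule, but its RNA was not.

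Genes near fiber members were furthest above the share of all genes. Of 899 measured genes nearest to a fiber member, 209 (23.2%) were higher at P5 than at E18.5 and 241 (26.8%) higher in adult. Genes nearest to non-fiber members were higher in 27 of 230 (11.7%) and 25 of 230 (10.9%), and lower in adult in 140 (60.9%), against 46.8% of all genes. Near members in neither group, 92 of 902 genes were higher at P5 (10.2%) and 133 of 906 in adult (14.7%). The median log2 ratio from E18.5 to adult was -1.64 near non-fiber members, against 0.02 near fiber members. In the same Ttn nuclei the 4 mesenchymal markers summed to 905.8 CPM at E18.5 and 19.6 CPM in adult. The part of RNA from other cells in these shares was not tested. In the other nuclei, genes near non-fiber members were higher at P5 in 45 of 259 (17.4%), against 4.87% of all genes there, and higher in adult in 63 of 255 (24.7%), against 11% of all. Genes near fiber members were also above all genes there, with 7.43% higher at P5 and 19.2% in adult. So were genes near members in neither group, with 7.98 and 16.5%. The makeup of the other nuclei changed with stage, so more cells of a type and more RNA per cell cannot be told apart.

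**Figure D3:**
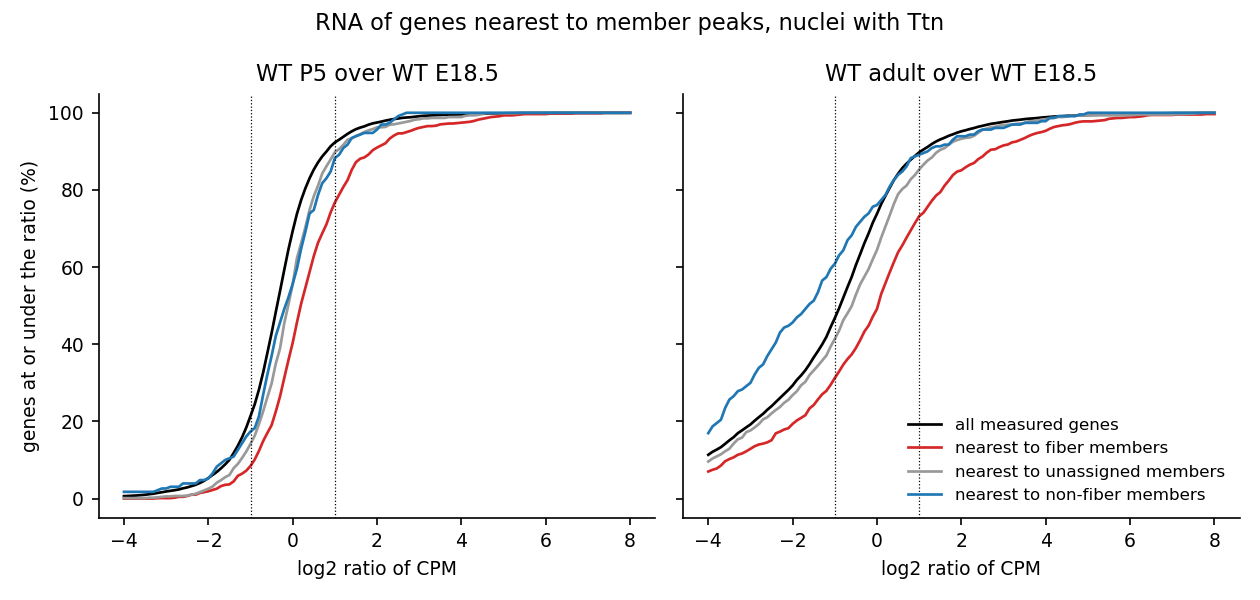
Cumulative share of measured genes (y axis, %) by the log2 ratio of CPM in Ttn nuclei (x axis), P5 over E18.5 on the left and adult over E18.5 on the right, with dotted lines at 2-fold. Genes nearest to fiber members (red) lie to the right of all measured genes (black) in both panels, and in adult those nearest to non-fiber members (blue) lie to the left, with 60.9% at least 2-fold lower, against 46.8% of all measured genes.

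The share of genes that were higher was larger within 10 kb of a member and with several members. Where a member lay within 1 kb, 75 of 336 genes were higher at P5 (22.3%) and 92 of 340 in adult (27.1%), against 144 of 1048 (13.7%) and 177 of 1046 (16.9%) where one lay 10 to 100 kb away. Over 100 kb away it was 14.9% at P5 and 17.5% in adult, no lower than at 10 to 100 kb. Of genes with 3 or more members, 29 of 87 were higher at P5 (33.3%, 95% interval 23.6 to 44.3), against 203 of 1480 with 1 member (13.7%, 95% interval 12 to 15.6). In adult these were 28 of 88 (31.8%) and 259 of 1474 (17.6%). When every gene within 100 kb of a member was counted, in place of the nearest, the shares were 9.76% at P5 and 13.3% in adult. These were above the 7.68 and 10.2% of all measured genes, by less than for the nearest genes. The pattern was not particular to Ttn nuclei. In the other nuclei, the adult share was 25.1% within 1 kb and 16.9% at 10 to 100 kb. With 3 or more members it was 35.9% there, and with 1 member 17.1%.

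**Figure D4:**
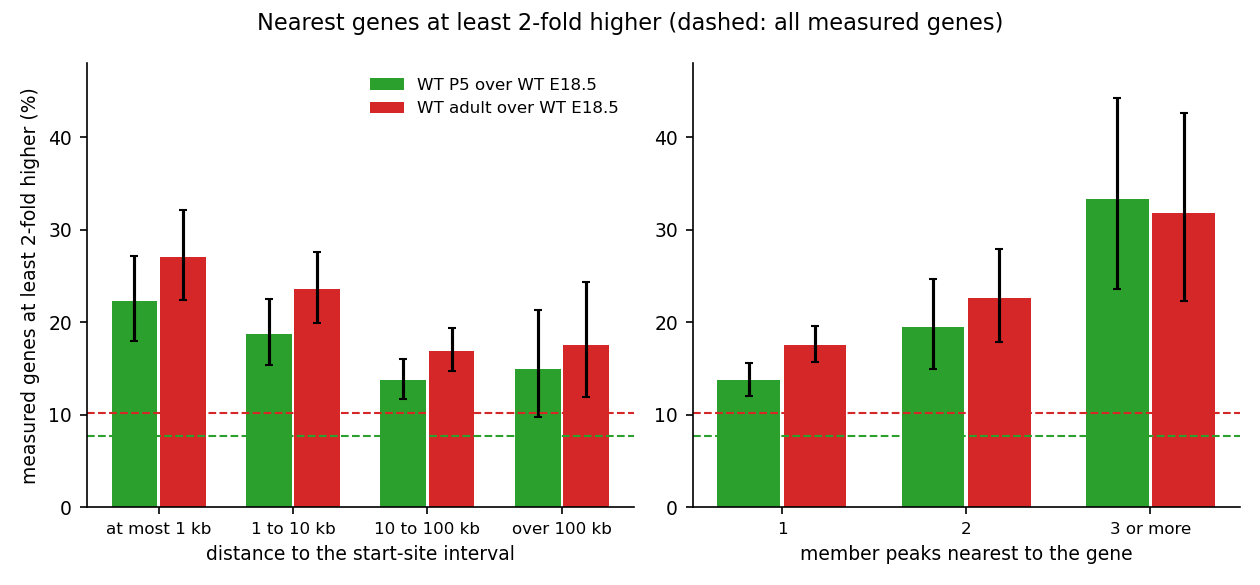
Share of measured nearest genes at least 2-fold higher than at E18.5 in Ttn nuclei (y axis, %), at P5 (green) and in adult (red), by distance to the member (left) and number of members (right), with exact binomial 95% intervals and the share of all measured genes as dashed lines. Bars are highest within 1 kb (22.3 and 27.1%) and with 3 or more members (33.3 and 31.8%), and the intervals of neighboring bars overlap except in adult between 1 to 10 kb and 10 to 100 kb.

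Most genes already had a peak at their start before birth, near members or not. Of all measured genes, 91.5% had a WT E18.5 peak within 1 kb of an annotated transcript start, as did 90.3% of the measured nearest genes, in the comparison of P5 with E18.5. Of the 285 nearest genes higher at P5, 235 (82.5%) had one, as did 896 of all 1116 genes higher at P5 (80.3%). For the 350 higher in adult the share was 84.9%, against 84.8% of all such genes.

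Of the 218 genes on 12 lists of muscle functions, 66 were nearest to a member (30.3%), with 93 members in all, against 12.6% of all genes measured in adult or at E18.5. The lists were chosen with earlier results of these data known, and list genes are well expressed, so this share is a description. Of the 93 members, 58 were fiber members and 9 non-fiber.

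Contractile genes of the fast fiber had the highest ratios of the 12 lists, with a median log2 of 4.78 from E18.5 to adult over those with a member. On the adult fast sarcomere list, 5 of 16 genes were nearest to 7 members, all of them fiber members, and 4 of these 5 genes were higher both at P5 and in adult. Of all 16, 10 were higher and 4 lower in adult than at E18.5. Myh4 (ENSMUSG00000057003, chr11:67238029-67260446), the myosin of the fastest type 2B fibers, stood at 0.788, 9.55, 1589, 2977 and 5.85 CPM. It was barely present before birth in either genotype and abundant after it, 166-fold (95% interval 139 to 201) higher at P5 than at E18.5 and 312-fold (95% interval 261 to 376) higher in adult. Its member, chr11:67237213-67238085, covered the promoter shown above and had 1960 ATAC counts in adult Ttn nuclei against 6 in other nuclei (ratio 56.3), and 394 against 10 at P5 (ratio 39.1). Reads of Myh4 may be shared with the closely similar myosins beside it, and the antisense gene Myhas, whose own promoter window is under the same member, was at 0.295, 1.66, 114, 459 and 2.79 CPM.

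Myh1, the type 2X myosin, was at 10.9, 29.9, 624, 821 and 14.6 CPM and had a member in an intron at chr11:67204439-67205365. Pvalb encodes parvalbumin, the calcium buffer of fast fibers, and was at 0, 8.21, 202, 704 and 0.180 CPM. It had no UMI at E14.5 and 2 in KO and was highest in adult, and was 45.6-fold (95% interval 12.3 to 381) lower in KO than in WT at E18.5. It had 2 members, over the start at chr15:78206162-78206983 and 4835 bases from it at chr15:78211235-78212092. The first had 1878 ATAC counts in adult Ttn nuclei against 6 in other nuclei (ratio 53.9), and 185 against 10 at P5 (ratio 18.4). Mybpc2, the fast myosin-binding protein C, was at 0.197, 34.3, 238, 776 and 7.20 CPM and had a member 946 bases from its start, with 2315 ATAC counts in adult Ttn nuclei against 6 in other nuclei (ratio 66.5), and 394 against 41 at P5 (ratio 9.54). Myl1, the fast essential light chain, differed from the others, with 2533, 3762, 4659.9, 2138 and 2717 CPM and 2 members, and was lower in adult than at P5.

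**Figure D5:**
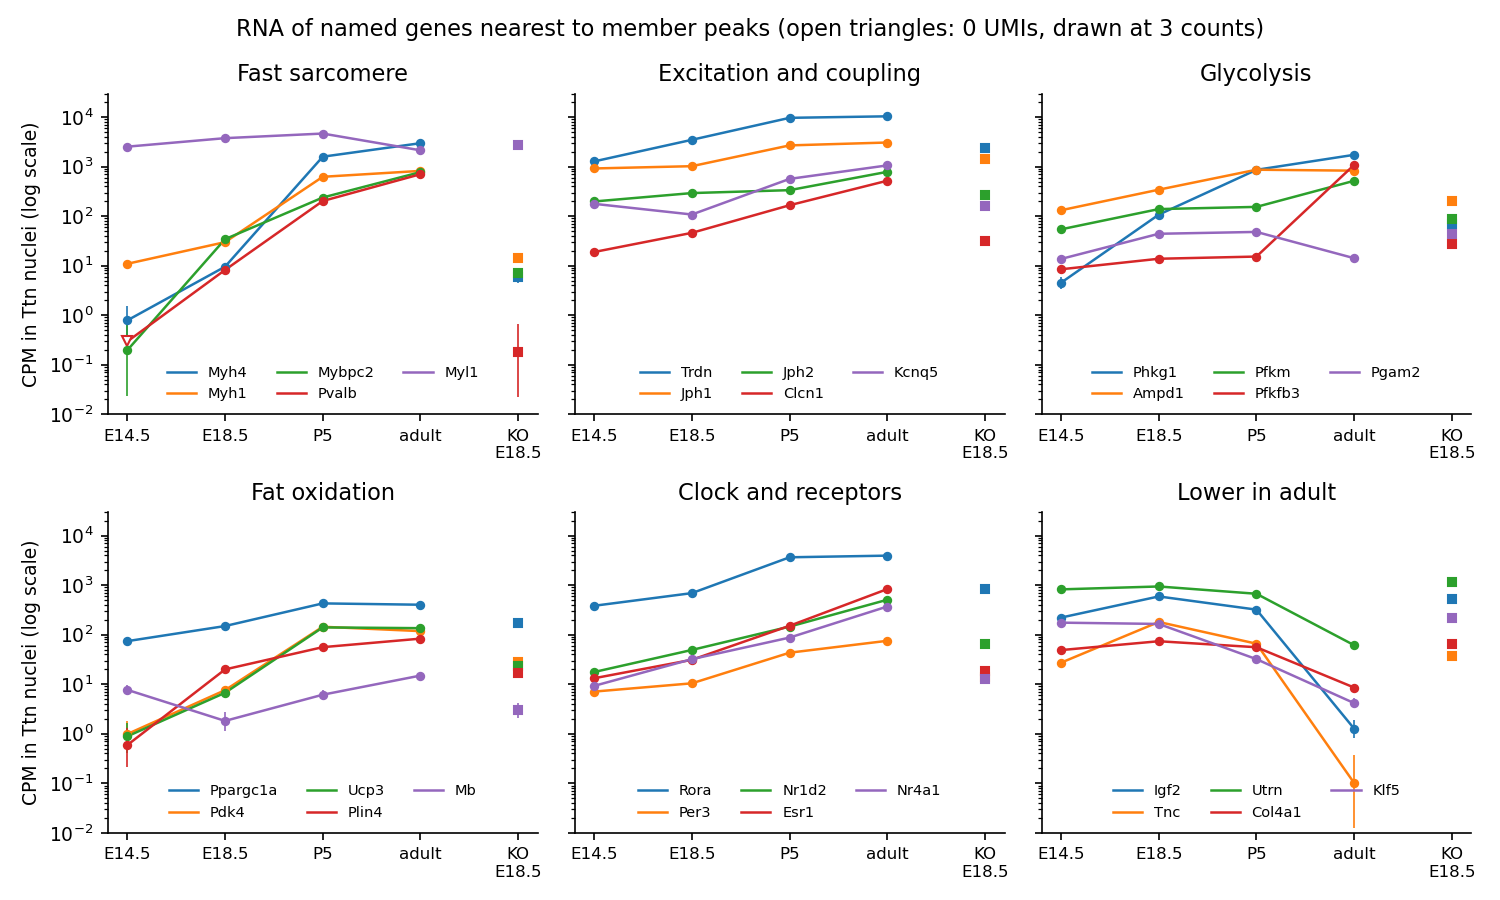
CPM in Ttn nuclei (y axis, log scale) of named genes nearest to members, over the 4 WT stages (circles, joined) and in KO at E18.5 (squares), with exact Poisson 95% intervals that are mostly smaller than the symbols. Fast sarcomere genes other than Myl1 lie between 8.21 (Pvalb) and 34.3 CPM (Mybpc2) at E18.5 and between 704.2 (Pvalb) and 2977 CPM (Myh4) in adult, Pfkfb3 reaches at most 27.6 CPM outside adult, and the genes of the last panel are lowest in adult.

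Some genes of the triad and most of those for membrane excitability were higher after birth. On the excitation-contraction coupling list, 6 of 17 genes had 7 members, all fiber members, and 2 of the 6 were higher at P5, 3 in adult and 1 lower in adult, against 5 higher and 1 lower in adult of all 17. Trdn, which anchors calsequestrin at the calcium store, was at 1277, 3484, 9678, 10384 and 2389.8 CPM. Jph1, a junctophilin that holds the surface membrane to the store, was at 919.5, 1022, 2687, 3072 and 1429 CPM and had 2 members, of which chr1:17099984-17100889 lay 2095 bases from its start with 670 ATAC counts in adult Ttn nuclei against 2 in other nuclei (ratio 57.7, 95% interval 15.9 to 477), and 122 against 11 at P5 (ratio 11.0). Jph2 was at 198, 293, 335, 786 and 262 CPM and so differed from Jph1 in being higher only in adult. The channel subunits Cacng1 and Cacnb1 had members 2529 and 932 bases away and were 3.26-fold and 1.90-fold lower in adult than at E18.5, the latter within the 2-fold limit. Cacna1s had an intronic member, chr1:136077375-136078302, with 682 ATAC counts in adult Ttn nuclei against 7 in other nuclei (ratio 16.8), and 263 against 25 at P5 (ratio 10.4).

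On the membrane excitability list, 3 of 4 genes with a member were higher at P5 and in adult, against 10 higher and 1 lower in adult of all 17. Clcn1, the chloride channel that stabilizes the resting fiber, was at 18.9, 46.1, 166, 520.0 and 32.2 CPM, and its member lay 2918 bases from the start. Kcnq5, a potassium channel, was at 178, 108, 566, 1060.1 and 161 CPM, and Aqp4, the water channel of fast fibers, at 0, 2.13, 95.3, 35.0 and 2.61 CPM. The inward rectifier Kcnj2 was at 33.0, 26.1, 22.0, 29.5 and 26.0 CPM, within 2-fold in each comparison although its member had 489 ATAC counts in adult Ttn nuclei against 2 in other nuclei (ratio 42.1, 95% interval 11.6 to 349), and 95 against 17 at P5 (ratio 5.55).

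Enzymes of energy supply differed in when they were higher. On the glycolysis and phosphagen list, 6 of 22 genes had a member, all 6 of them fiber members, and 2 were higher at P5, 4 higher and 1 lower in adult, where 11 of all 22 were higher and 3 lower. Phkg1, the catalytic subunit of phosphorylase kinase in muscle, was at 4.53, 107, 862, 1734 and 70.0 CPM and Ampd1, the muscle AMP deaminase, at 132, 343, 867, 829 and 201 CPM. Pfkm, muscle phosphofructokinase, was at 54.3, 139, 154, 518 and 85.7 CPM. Pfkfb3, which makes the activator of phosphofructokinase, was at 8.47, 13.8, 15.3, 1086 and 27.6 CPM, 78.7-fold (95% interval 67.8 to 91.8) higher in adult than at E18.5 but 1.11-fold (95% interval 0.896 to 1.37) higher at P5. Its member chr2:11525829-11526742 was called at P5, when the RNA was still near the prenatal level, and had 1970 ATAC counts in adult Ttn nuclei against 23 in other nuclei (ratio 14.8), and 99 against 19 at P5 (ratio 5.17). The level of that peak in Ttn nuclei, in CPM of ATAC counts, was 6.06-fold higher in adult than at P5. Pgam2 and Pgk1 had fiber members too but stood at 13.7, 44.1, 48.1, 14.2 and 44.1 CPM and 33.9, 46.6, 48.8, 34.5 and 53.8 CPM.

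On the fatty acid oxidation list, 7 of 22 genes had 13 members, 10 of them fiber members, and 5 of the 7 were higher at P5 and in adult, against 11 of all 22 in adult, with none lower. Pdk4, the kinase that keeps pyruvate out of the mitochondrion, was at 0.985, 7.58, 145, 118 and 28.1 CPM and had 3 members, 2130 to 14754 bases from its start-site interval. Ucp3, a mitochondrial carrier of muscle, was at 0.886, 6.71, 140.3, 135 and 23.0 CPM, with the member over its promoter at 1063 ATAC counts in adult Ttn nuclei against 30 in other nuclei (ratio 6.10), and 328 against 32 at P5 (ratio 10.17). Both were also higher in KO than in WT at E18.5, Pdk4 3.71-fold (95% interval 2.94 to 4.71) and Ucp3 3.44-fold (95% interval 2.68 to 4.45). Ppargc1a, the coactivator of mitochondrial biogenesis, had 4 members and was at 74.0, 149, 428, 402 and 172 CPM. Myoglobin (Mb) was at 7.68, 1.81, 6.13, 14.9 and 2.97 CPM, low in every library, and Plin4 at 0.591, 19.9, 55.9, 83.2 and 16.7 CPM.

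Most clock genes and hormone receptors with a member were higher in adult. Of 19 circadian genes, 7 had 10 members, 8 of them fiber members, and 4 were higher at P5 and 5 in adult, where 12 of all 19 were higher. Rora, a receptor that drives the clock gene Arntl, had 4 members in its introns and was at 383, 690.4, 3654, 3944 and 834 CPM. Nr1d2, its repressor counterpart, was at 17.6, 49.2, 145, 507 and 65.5 CPM, Per3 at 7.09, 10.4, 43.3, 75.2 and 14.0 CPM, Bhlhe41 at 4.23, 3.79, 19.4, 66.9 and 10.5 CPM and Tef at 33.3, 59.4, 92.99, 264 and 84.4 CPM. Arntl and Per2 were within 2-fold at every stage from E18.5 on, at 25.5, 44.0, 55.5, 50.9 and 32.4 CPM and 11.1, 13.7, 12.4, 22.3 and 13.4 CPM. The labels used here give no hour of collection, so the time of day of each library is unknown.

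Of 18 hormone and nuclear receptor genes, 8 had 11 members, 6 of them fiber members and 2 non-fiber, and 4 were higher at P5 and 6 in adult, where 11 of the 17 measured on the list were higher. Esr1, the estrogen receptor, was at 13.2, 31.1, 151, 833 and 18.6 CPM and was 26.8-fold (95% interval 24.2 to 29.7) higher in adult, although neither of its 2 members was a fiber member. One of these, chr10:4676432-4677220, had 59 ATAC counts in adult Ttn nuclei against 54 in other nuclei (ratio 0.188), and 15 against 70 at P5 (ratio 0.213). Nr4a1, an early-response receptor, was at 9.26, 32.0, 87.3, 370.3 and 12.9 CPM, and its member, 11059 bases away, had 1899 ATAC counts in adult Ttn nuclei against 18 in other nuclei (ratio 18.2), and 446 against 87 at P5 (ratio 5.09). Esrrg was at 22.6, 176, 600.3, 856 and 156 CPM and Nr3c1, the glucocorticoid receptor, at 212, 204, 407, 542 and 221 CPM. The insulin-like growth factor receptor Igf1r was the 1 gene with a member that was lower in adult, of 2 on the list, at 951, 737, 438, 357 and 958 CPM.

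The 8 transcription factors of the myonucleus with a member were all within 2-fold of E18.5 in adult. On that list 8 of 25 genes had 14 members, 6 of them fiber members, and 2 were higher at P5 and 0 in adult, against 5 higher and 2 lower in adult of 24 measured on the list. Nfix, a factor of the fetal and later fiber, had 3 members and was at 15.2, 107, 177, 211 and 91.8 CPM. Nfia and Nfib, of the same family, were at 499.7, 959.7, 1203, 998 and 908 CPM and 254, 1172, 1401, 1354 and 1070.0 CPM. Prrx1 was at 59.96, 172, 377, 164 and 102 CPM, highest at P5, and both its members were fiber members. Mafa, of the large Maf family, was at 1.18, 7.18, 12.8, 4.86 and 5.49 CPM with a member 918 bases away that had 1220 ATAC counts in adult Ttn nuclei against 25 in other nuclei (ratio 8.41), and 432 against 100 at P5 (ratio 4.29). Foxo3 had 3 members and was at 116, 75.5, 82.6, 105 and 155 CPM.

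On the growth and atrophy list, 7 of 20 genes had 9 members, and 3 were higher at P5, 4 in adult and 2 lower in adult, against 8 higher and 3 lower in adult of all 20. Hdac4, the activity-dependent deacetylase, was at 253, 157, 358, 519.9 and 273 CPM and Tfeb, the regulator of lysosomes, at 2.86, 28.2, 61.1, 150.4 and 19.4 CPM. Mstn, myostatin, the brake on muscle growth, was at 68.2, 20.0, 45.5, 24.5 and 23.2 CPM. Igf1 and Akt1 were lower in adult by 6.16-fold and 17.6-fold.

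The lists of other cells and of the immature fiber went the other way. All 5 capillary and matrix genes with a member (Dcn, Lama2, Col4a2, Col4a1 and Kdr, of 15) were lower in adult Ttn nuclei than at E18.5, and 5 of their 7 members were non-fiber members. Of the whole list, 14 were lower. Dcn, decorin of the matrix, was at 12.6, 69.0, 104, 5.97 and 33.0 CPM in Ttn nuclei, where the mesenchymal markers, Dcn among them, moved the same way, and the part of such RNA in the result was not tested. Of the neuromuscular junction list, Utrn and Prkar1a of 14 genes had members, none of them fiber members, and both were lower in adult, as were 10 on the list, with Utrn at 822, 940.2, 669.9, 61.3 and 1132 CPM. Klf5 was the 1 of 13 developmental genes with a member, which lay 91830 bases away, and was at 175, 165, 32.1, 4.15 and 215 CPM, while all 13 were lower in adult.

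Genes with the most members covered a wide range of levels. Pde4d, a phosphodiesterase that breaks down cyclic AMP, had 8 and was at 2077, 768, 2099, 7179 and 813 CPM. With 5 each, Celf2 was at 8274, 3784, 2449, 1412 and 5244 CPM, Ptprg at 219, 225, 332, 514 and 209 CPM, Bmper at 13.7, 18.9, 31.1, 5.72 and 47.6 CPM and Wnt5a at 6.30, 6.79, 8.59, 4.76 and 5.31 CPM. The others with 5 were at low levels, 1700027A15Rik at 3.25, 3.63, 9.81, 1.92 and 13.1 CPM, Spns3 at 0.197, 0.158, 1.39, 2.38 and 0.180 CPM, Gm15893 at 4.23, 4.34, 3.19, 0.557 and 5.58 CPM and Gm29101 at 0.197, 0.158, 0.654, 0.101 and 0.540 CPM. Foxn3 and Msi2, with 4 each like Rora, were at 461, 542, 1332, 1399 and 551 CPM and 1356, 1399, 1492, 1651 and 2034 CPM. Whether the number of members follows the length of a gene was not tested.

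The largest ratios of adult over E18.5, among nearest genes with at least 100 UMIs in 1 of both, were those of Gm26740, Nctc1, Myh4, Tuba8, 4930402D18Rik, Fads6, Hr, Lncpint, Pvalb, Sall4, Gm20743 and Pfkfb3. Gm26740 is annotated as an antisense transcript and was at 1.87, 8.13, 530.2, 3363 and 8.19 CPM, and 1 of its 2 members lay over its start with 830 ATAC counts in adult Ttn nuclei against 14 in other nuclei (ratio 10.21), and 130 against 23 at P5 (ratio 5.61). Nctc1, a noncoding transcript near Igf2, was at 0.886, 3.16, 74.0, 1081 and 4.32 CPM, and Lncpint, another long noncoding RNA, at 5.91, 10.3, 70.9, 1349 and 23.9 CPM with 3 members. Tuba8, an alpha-tubulin, was at 0, 0, 4.66, 51.5 and 0.180 CPM, with 0 UMIs at E18.5, and so at least 217-fold higher in adult, taking 3 counts as the floor of that library. Hr, a corepressor of nuclear receptors, was at 0.295, 0.237, 3.93, 37.9 and 0.270 CPM. Fads6 and Sall4 had 1 UMI each at E18.5 and ratios of 192-fold (95% interval 34.3 to 7625) and 84.0-fold (95% interval 14.8 to 3344).

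The smallest ratios were those of Tnc, Tmem255a, Gm11149, Igf2, B830012L14Rik and Fignl1. Igf2, the fetal growth factor, was at 221, 592, 320.3, 1.27 and 520.3 CPM and was 468-fold (95% interval 316 to 723) lower in adult than at E18.5. B830012L14Rik, a long noncoding RNA, was at 3195, 5682, 5606, 12.8 and 4004 CPM. Tnc, a tendon and matrix glycoprotein, was at 27.2, 181, 65.8, 0.101 and 37.5 CPM, and Tmem255a at 5.22, 52.1, 13.7, 0.0506 and 18.46 CPM, which rest on 2 and 1 UMIs in adult. Each of these 6 genes had 1 member, so members also lay nearest to genes with very low levels in adult Ttn nuclei. From E18.5 to adult, the tenocyte markers in Ttn nuclei also went from 51.2 to 2.78 CPM and the mesenchymal ones from 905.8 to 19.6 CPM. The part of RNA from other cells in these ratios was not tested.

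By ATAC counts per kb of width in adult Ttn nuclei, the 10 highest members were nearest to Gm49696, Pnmt, Chac1, B230206L02Rik, Ggnbp2 (2 members), Shld1, Slc25a25, Neurl1a and Gm43674. The member near Gm49696, chr16:89608136-89609077, had 3661 ATAC counts in adult Ttn nuclei against 100 in other nuclei (ratio 6.31), and 151 against 18 at P5 (ratio 8.33), and its level in Ttn nuclei was 7.39-fold higher in adult than at P5. The one near Pnmt, chr11:98384855-98385672, had 2926 ATAC counts in adult Ttn nuclei against 22 in other nuclei (ratio 22.9), and 612 against 41 at P5 (ratio 14.8). Both were mostly open in Ttn nuclei, whereas the 2 at Ggnbp2 were close to even, the larger with 2000 ATAC counts in adult Ttn nuclei against 422 in other nuclei (ratio 0.816), and 550 against 609 at P5 (ratio 0.896).

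Adult Ttn nuclei could also be split by fiber type, a comparison added after the data were seen. Among nuclei with at least 5 UMIs of Myh1, Myh2 and Myh4, 2942 had at least 80% of them from Myh4 (type 2B) and 659 at most 20%, with 105 between. Of 3257 members measured in these nuclei, 529 were at least 2-fold higher in Myh4 nuclei (16.2%), against 13.1% of all measured adult peaks, and 451 at least 2-fold lower (13.8%), against 8.55%. Of adult-only peaks, 25.4% were higher and 10.6% lower. For peaks called at WT E18.5, P5 and adult only, the shares were 12.6 and 13.2%. Neither direction was thus particular to members. The member over the Myh4 start was 14.4-fold (95% interval 9.89 to 22.0) higher in Myh4 nuclei, and that 4835 bases from the Pvalb start 4.87-fold (95% interval 3.57 to 6.81). The split used Myh4 RNA, so the ratio at the Myh4 start is not independent of it. The ratio was 0.0965 (95% interval 0.0701 to 0.131) for the Ppargc1a member at chr5:51072420-51073329, 0.238 (95% interval 0.200 to 0.285) for the Esrrg member, 0.469 (95% interval 0.397 to 0.555) for the nearest Pdk4 member and 0.0234 (95% interval 0.00830 to 0.0538) for the Kcnq5 member. Of the members near fast sarcomere genes, 4 of 7, that of the Myh4 start among them, were at least 2-fold higher in Myh4 nuclei and 0 lower. Of the 13 near fatty acid oxidation genes 0 were higher and 4 lower.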

How the data were processed

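Nuclei of 5 pooled hindlimb libraries were profiled by 10x multiome, per the paper after the sort and mixing by PCM1. Per the labels and the deposited files, the authors made the counts (gene UMIs and ATAC counts in peaks, for each barcode) with Cell Ranger ARC 2.0.0 on mm10, which called peaks in each library over all its nuclei. Whether gene counting used the strand, or how reads of similar genes were split, is not given in the sources used here. No depth correction had been applied to the deposited counts.

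Nuclei with over 400 and under 25000 UMIs, less than 10% of them mitochondrial, and under 70000 ATAC counts were kept, and no doublet caller was run. UMIs were summed over nuclei with Ttn at or over 1% (Ttn itself left out of the gene counts) and given as CPM. Intervals on CPM are exact Poisson, those on ratios exact conditional and those on shares exact Clopper-Pearson, all at 95%, and they cover counting error only. A difference was called by size, at 2-fold with at least 20 counts in 1 of both groups, and a 0 was set to 3 counts in ratios. The distance of a peak was taken to the start-site intervals of 32272 genes in the files. Promoter windows came from RefSeq (GRCm38.p6), and peak places from the GENCODE mouse annotation. Motifs in whole peaks were not searched, since a genome sequence was not used here.

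Named genes were those with the most members, with the largest and smallest ratios of adult over E18.5 among genes with at least 100 UMIs, those nearest to the strongest peaks, and the members of 12 gene lists. An item of these lists is not reported here. Members and lists were chosen with earlier results of these data known. Classes of other nuclei, the split by myosin and counts of list peaks were added after the data were seen. The tools were scipy 1.17.1, numpy 2.4.6 and pandas 2.3.3 under Python 3.11.15, with edgeR 4.0.16 in R 4.3.3 for TMM factors. The steps were tested on simulated data. Alternatives covered the rule, the Ttn limit, filters, scale and gene assignment.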

Additional observations from a re-analysis of the deposited data

Results flagged for a closer look

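In 30 members the ATAC level was at least 2-fold lower in Ttn nuclei than in other nuclei in adult and at least 2-fold higher at P5, and in 5 it was the reverse. They were singled out because the 2 stages differ in direction. The share of such peaks among all adult peaks with a P5 peak was not computed. The 2 peaks of a pair also need not cover the same bases. The member nearest to Slc38a2, of the 30, shared 5 bases with its P5 peak. With 1 library a stage, the difference between stages was not tested, and over 3480 members measured in both libraries, counting error near the 2-fold limits adds to such cases. The highest ratio at P5 was that of the member nearest to Ms4a6d, with 5.29 (95% interval 2.57 to 12.3, 48 against 9 counts) and 0.291 in adult (49 against 29). The member nearest to Ttc1 rested on more counts, with a ratio of 4.51 at P5 (95% interval 3.04 to 6.89, 141 against 31 counts) and 0.3397 in adult (71 against 36).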

How the results depend on the processing

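With 1 library a group there was no replicate to leave out, and No paired analysis was possible because no group had a second library. Over the alternatives tried, the share of nearest genes that were higher stayed above the share of all genes, by 1.27 to 2.56 times at P5 and 1.296 to 2.33 times in adult, both against E18.5, by 1.15 to 1.68 times from P5 to adult, and by 1.15 to 1.46 times from E14.5 to E18.5. For genes lower in KO the range was 1.14 to 1.47 times. The share of members higher in Ttn nuclei stayed at 1.55 to 1.75 times that of all adult peaks, and at 2.65 to 3.04 times that of all P5 peaks. The number of members was 2620 with at least 100 ATAC counts in adult and P5, 3123 with no prenatal peak within 500 bp, 3434 where P5 peaks covered at least 50% of the adult peak, and 4060 with KO peaks not used in the rule, against 3497. Of the other values, 33 moved beyond the limit set for them, which for a share is its counting interval, and are as follows.

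For genes higher in adult than at E18.5 (19.0%), the share was 35.2% with TMM factors, 21.8% with Ttn at or over 2%, 15.2 and 21.4% with at least 1 and 100 UMIs, 13.3% for all genes within 100 kb and 23.9% for nearest genes within 10 kb. For genes higher at P5 than at E18.5 (15.5%), it was 22.9% with TMM factors, 9.76% for all genes within 100 kb and 19.7% within 10 kb. From P5 to adult (11.6%), it was 20.6% with TMM factors, 13.2% with Ttn at or over 2%, 9.11 and 13.4% with at least 1 and 100 UMIs, 9.55% within 100 kb and 13.9% within 10 kb. From E14.5 to E18.5 (21.3%), it was 19.3% with TMM factors, 19.2 and 23.4% with Ttn at or over 0.5 and 2%, 24% without a filter on nuclei, 18.9% with at least 100 UMIs and 25.3% within 10 kb. For genes lower in KO (7.28%), it was 8.97% with Ttn at or over 2%, 5.64% without a filter on nuclei and 5.79% with at least 100 UMIs.

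Of members with at least 100 ATAC counts in adult and P5, 54% were higher in Ttn nuclei in adult and 56.6% at P5, 16.9% lay within 1 kb of a start-site interval, and the median distance was 13732.5 bases. With KO peaks not used in the rule, 47.8 and 49.2% were higher in Ttn nuclei in adult and at P5. The P5 share was 49.2% with Ttn at or over 2% and 48.9% without a filter on nuclei. With no prenatal peak within 500 bp, 14.2% lay within 1 kb. Assigning members to the nearest GENCODE transcript start, an alternative chosen after seeing the data, moved none of the 5 shares of nearest genes beyond their intervals. Motifs were searched in RefSeq promoter windows only. Searches in the sequence of the peaks themselves, in fixed windows or whole, were not run, since no genome sequence was used here. The cause of each shift was not tested.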

Other observations

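Runs of 4 or more members, each within 50 kb of the next, held at most 6 members. One run of 6 covered chr11:72507343-72574429 (mm10), nearest to the transporters Spns2 and Spns3, and another covered chr1:91913623-92028806, nearest to Gm29101 and Hdac4. Among chromosomes 1 to 19 and X, members were 3.58% (X) to 5.29% (10) of the adult peaks, so no chromosome held a share far from the others.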
